A study of Mus musculus with 28 samples.

Results

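The genes described here encode the protein subunits of the mitochondrial respiratory chain and of ATP synthase. They were taken as the protein-coding rows whose symbol begins with Nduf followed by the letter a, b, c, s or v and a number, is Sdha to Sdhd or Cyc1, or begins with Uqcr, Cox4 to Cox8, Atp5 or mt-. This rule found 101 of 55487 gene IDs. Of these, 88 are nuclear (36 of complex I, 4 of complex II, 9 of complex III, 21 of complex IV and 18 of complex V) and 13 lie on mitochondrial DNA (7, 1, 3 and 2 in complexes I, III, IV and V). In both experiments 95 members had enough counts to be tested, 82 nuclear and all 13 mt- genes.

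The libraries were bulk RNA-seq of splenic conventional dendritic cells of C57BL/6 mice, purified by sorting: type 1 (cDC1), type 2 (cDC2) and a population labelled hybrid DC. Genotypes were WT (wild type), Irf8 +32H/+ (H/+, 1 altered copy of an Irf8 enhancer) or Irf8 +32H/H (H/H, both copies altered). Further mice had both H alleles and either no Nfil3 (H/H Nfil3-/-) or an altered enhancer of Zeb2 (H/H Zeb2 -165D123), and H/H was their control. In experiment 1 each of WT, H/+ and H/H gave cDC1 and cDC2, and H/+ and H/H gave hybrid cells too. In experiment 2 cDC1 came from WT, H/H and H/H Nfil3-/- animals, while hybrid cells came from H/H animals with or without the Nfil3 or the Zeb2 change. Each of the 14 groups had 2 biological replicates. The labels give no ages, no pooling of animals and no sort gates.

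The respiratory chain passes electrons from NADH (complex I) or succinate (complex II) through quinone, complex III and cytochrome c to oxygen at complex IV. The protons pumped on the way drive ATP synthase, complex V. Its subunits come from separate genomes: most are nuclear genes transcribed by RNA polymerase II, while core subunits of complexes I, III, IV and V are read from long transcripts of mitochondrial DNA that are cut into single mRNAs. Dendritic cells use respiration and glycolysis to different extents by type and state, and cDC1 are often described as the more oxidative lineage.

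Nuclear respiratory genes are known targets of GABP, NRF1 and YY1, and 3 letter patterns of those factors were searched on both strands of promoter windows. The windows run from 250 bases before to 50 bases after a start and come from RefSeq on build GRCm38.p6. Windows were found for 68 of the 88 nuclear members, 73 in all. CCGGAAG or its reverse complement CTTCCGG (GABP and other ETS factors) stood in 17 of them (23.3%), against 8.86% of all 32851 windows. The NRF1 pattern (GCGC, then A, any base and GCGC, or the reverse complement) stood in 18 (24.7%, against 4.60% of all) and AAGATGGC or GCCATCTT (YY1) in 10 (13.7%, against 2.75%). A match describes the letters and not a bound site. The next lines give 280 bases (250 before and 30 after the start, 5′ to 3′ on the gene's strand, matches in capitals) for 6 genes that the results turn on. They are Ndufa12 (chr10:94198785-94199064, plus), Ndufb11 (chrX:20617590-20617869, minus), Sdhd (chr9:50603820-50604099, minus), Uqcr11 (chr10:80406792-80407071, minus), Atp5g3 (chr2:73911297-73911576, minus) and Cox6b2 (chr7:4753065-4753344, minus).
Ndufa12: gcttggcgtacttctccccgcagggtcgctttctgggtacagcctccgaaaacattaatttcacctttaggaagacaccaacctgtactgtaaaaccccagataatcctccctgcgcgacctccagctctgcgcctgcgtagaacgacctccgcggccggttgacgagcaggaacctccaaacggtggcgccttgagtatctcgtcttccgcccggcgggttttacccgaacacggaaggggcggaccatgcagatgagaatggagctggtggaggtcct
Ndufb11: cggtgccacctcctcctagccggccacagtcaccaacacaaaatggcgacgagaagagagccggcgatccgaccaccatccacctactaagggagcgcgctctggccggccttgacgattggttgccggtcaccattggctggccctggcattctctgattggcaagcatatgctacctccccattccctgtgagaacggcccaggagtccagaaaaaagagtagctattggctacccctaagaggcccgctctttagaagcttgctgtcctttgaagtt
Sdhd: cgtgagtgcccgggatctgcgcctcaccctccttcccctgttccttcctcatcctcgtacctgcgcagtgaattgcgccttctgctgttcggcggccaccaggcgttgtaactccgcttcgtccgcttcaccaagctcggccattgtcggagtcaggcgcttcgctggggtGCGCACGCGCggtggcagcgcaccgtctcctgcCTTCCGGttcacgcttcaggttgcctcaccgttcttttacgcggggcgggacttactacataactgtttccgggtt
Uqcr11: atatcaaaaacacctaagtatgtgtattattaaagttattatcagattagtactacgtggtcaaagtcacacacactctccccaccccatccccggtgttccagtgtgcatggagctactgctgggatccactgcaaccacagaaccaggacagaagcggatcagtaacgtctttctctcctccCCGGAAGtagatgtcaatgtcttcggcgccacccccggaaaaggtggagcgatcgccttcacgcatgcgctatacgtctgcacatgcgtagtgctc
Atp5g3: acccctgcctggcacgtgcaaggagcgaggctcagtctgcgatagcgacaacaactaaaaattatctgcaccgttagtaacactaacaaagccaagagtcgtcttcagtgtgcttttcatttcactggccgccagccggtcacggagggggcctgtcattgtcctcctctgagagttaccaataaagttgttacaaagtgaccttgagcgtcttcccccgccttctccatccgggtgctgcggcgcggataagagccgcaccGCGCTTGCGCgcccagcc
Cox6b2: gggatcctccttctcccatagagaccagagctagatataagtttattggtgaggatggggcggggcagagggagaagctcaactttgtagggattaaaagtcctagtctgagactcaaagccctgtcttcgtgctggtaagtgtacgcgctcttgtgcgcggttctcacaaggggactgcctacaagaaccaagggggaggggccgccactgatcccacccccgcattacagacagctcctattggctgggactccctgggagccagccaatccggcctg
The Sdhd window holds 1 GABP and 1 NRF1 match, Uqcr11 1 GABP match and Atp5g3 1 NRF1 match. None of the 3 patterns is present in the windows of Ndufa12, Ndufb11 and Cox6b2.

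Libraries held 23.4 to 38.2 M counts in experiment 1 and 17.5 to 22.7 M in experiment 2. Levels are in CPM, counts per M of the scaled library. The genes behind the labels were read first: Irf8 stood at 2580 and 1959 CPM in the 2 WT cDC1 libraries and at 48.9 and 47.9 in WT cDC2, Nfil3 at 41.5 and 55.3 CPM in H/H and 5.62 and 5.70 in H/H Nfil3-/- hybrid cells, and Zeb2 at 38.6 and 46.9 in H/H and 10.3 and 19.6 in H/H Zeb2 -165D123 hybrid cells. Summed markers of cDC2 came to 12.0 and 14.3 CPM in WT cDC1 and 998 and 995 in WT cDC2. Xist, made in female cells, was at 120 to 215 CPM in replicate 2 of every group of experiment 1, so each group there held 1 library of each kind. In experiment 2 it was present in replicate 2 of H/H Nfil3-/- cDC1 (169 CPM), H/H Nfil3-/- hybrid (193) and H/H Zeb2 -165D123 hybrid cells (302) alone, and in no H/H or WT library. Every group of experiment 2 that was compared with H/H, apart from WT, thus differed from it in this respect too.

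Per kilobase of transcript, mitochondrial mRNAs were the most abundant of the chain. In WT cDC1 of experiment 1 the 13 mt- genes had a median of 995 CPM per kb, against 154 for the 82 nuclear members. mt-Co3, a core subunit of complex IV, was highest at 5953 CPM per kb, followed by mt-Co2 (2843), mt-Atp6 of complex V (2525) and mt-Co1 (2478). The highest nuclear members were Cox4i1 (958 CPM per kb) and Cox6a1 (546) of complex IV and Atp5e (606) of complex V. The lowest mt- gene was mt-Nd4l (147 CPM per kb), near the nuclear median. In all 14 groups the median of the mt- genes was the higher (528 to 995 against 93.8 to 154 CPM per kb). Some mt- reads were shared with copies of mitochondrial DNA in the nuclear genome, of which Gm29216 and Gm10925 had medians of 993 and 965 CPM over the 28 libraries. The values of mt-Co1, mt-Co2, mt-Co3, mt-Atp6, mt-Nd3, mt-Nd4 and mt-Nd4l are therefore estimates, while mt-Nd1, mt-Nd5, mt-Nd6 and mt-Cytb were whole counts in 28 of 28 libraries.

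**Figure D1:**
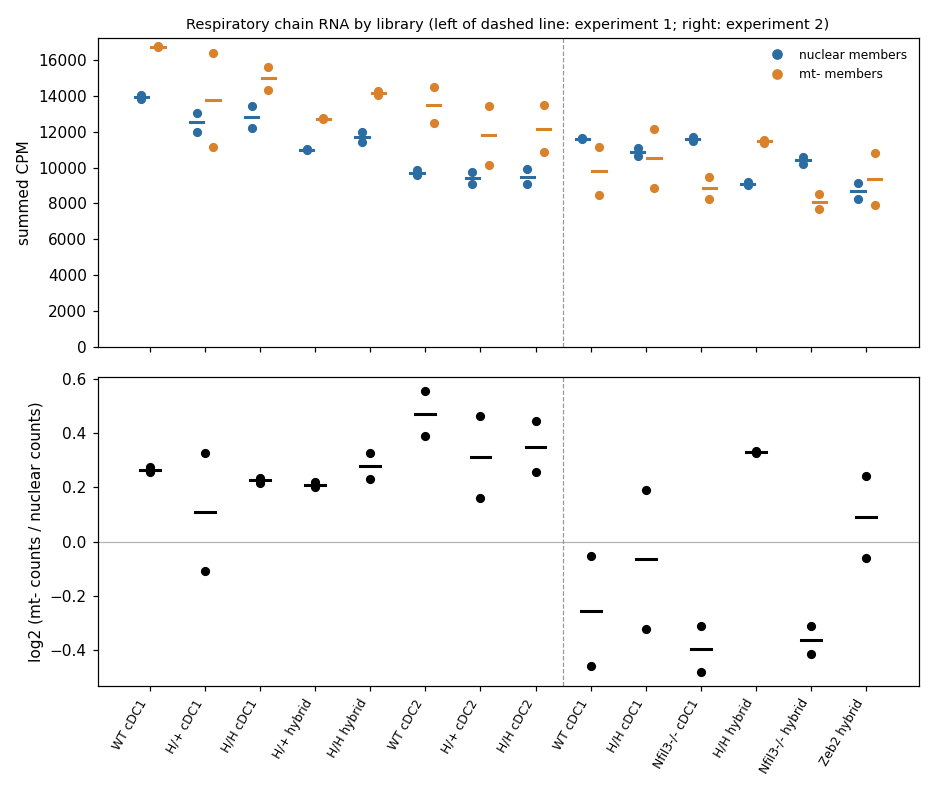
Summed CPM of the nuclear and mt- genes of the respiratory chain in every library (upper panel) and the log2 ratio of their summed counts (lower panel). Points are libraries, bars are means of 2, and groups right of the dashed line are experiment 2, where groups marked Nfil3-/- or Zeb2 carry both H alleles too. Nuclear sums were higher in every cDC1 library than in any cDC2 library of experiment 1, and the ratio was lowest in the libraries labelled Nfil3-/- and in single libraries of WT and H/H cDC1 of experiment 2.

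The first comparison asked how far the chain differs between the lineages of WT mice. Nuclear respiratory genes were higher in cDC1: 64 of 82 rose and 1 fell, with a median log2 difference of 0.52 (edgeR quasi-likelihood test, adjusted p below 0.05). Of all 16037 genes tested 20.5% rose and 23.5% fell, with a median of -0.07. Of the 13 mt- genes 2 rose and none fell, with a median of 0.23. Nuclear summed CPM was 13822 and 14045 in WT cDC1 and 9882 and 9560 in WT cDC2, and mt- summed CPM was 16718 and 16785 against 14512 and 12515. Before scaling, nuclear members made up 1.262% and 1.290% of counts in WT cDC1 and 1.046% and 1.032% in WT cDC2. For mt- genes these shares were 1.527% and 1.542% against 1.537% and 1.351%, which overlap. In bulk samples fewer cells of a type and less RNA per cell cannot be told apart. Markers of natural killer cells, summed, were at 4.76 and 4.06 CPM in WT cDC1 and 108 and 100.3 in WT cDC2, and monocyte and macrophage markers at 613 and 729 against 1920 and 1593. Their part in the lineage difference was not tested.

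The difference ran through all complexes of the chain. Complex I, the NADH dehydrogenase, had 28 of its 36 nuclear members higher in WT cDC1 (median log2 difference 0.43), complex II 3 of 4 (0.62), complex III 7 of 9 (0.66) and complex V 16 of 17 (0.58). Complex IV, cytochrome c oxidase, had 10 of 16 higher and 1 lower (0.49). Over the WT, H/+ and H/H genotypes together, where 28.1% of all genes rose and 32.7% fell, 72 of 82 nuclear members were higher in cDC1 and 2 lower. Every tested complex V member (17 of 17) was higher there, as were 32 of 36 in complex I and 8 of 9 in complex III. Among the 8 nuclear members that did not pass over the genotypes were Ndufs7, Ndufa8 and Ndufb4 of complex I, Sdha of complex II, Uqcrh of complex III, and Cox7a2l and Cox5b-ps of complex IV.

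Ndufa12, an accessory subunit of complex I, had the highest log2 difference. It stood at 78.3 and 98.8 CPM in WT cDC1 and at 38.2 and 39.01 in WT cDC2 (log2 difference 1.20 ± 0.12 SE, adjusted p = 1.53e-06). Ndufb11, another accessory subunit of complex I, stood at 201 and 218 CPM in WT cDC1 and at 95.8 and 90.04 in WT cDC2 (1.17 ± 0.10, adjusted p = 1.21e-07). In both genes every cDC1 library lay above both cDC2 libraries. Ndufs4, needed for a stable complex I, followed at 107 and 121 against 63.0 and 58.9 CPM (0.90 ± 0.14, adjusted p = 9.67e-05). The core subunits named next are ones that did not pass, and they do not stand for all core subunits. Ndufs8, another core subunit, had means of 187 CPM per kb in WT cDC1 and 121 in WT cDC2. Ndufs7, which carries the last iron-sulfur cluster, stood at 102 and 97.1 against 90.4 and 87.7 (0.16 ± 0.10, adjusted p = 0.218). Ndufs1 and Ndufv1, of the NADH-oxidising arm, each had a log2 difference of 0.25 and did not pass in WT cells (adjusted p = 0.0621 and 0.0591).

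Complex II has no mt- subunit. Sdhd, its membrane anchor, stood at 186 and 184 CPM in WT cDC1 and at 107 and 104 in WT cDC2 (0.81 ± 0.09, adjusted p = 2.31e-06). Sdhb, the iron-sulfur subunit, stood at 214 and 240 against 140.5 and 143 CPM (0.68, adjusted p = 9.84e-05), and Sdhc, the other anchor, at 79.1 and 78.6 against 55.4 and 52.0 (0.55, adjusted p = 0.000163). Sdha, the flavoprotein that oxidises succinate, was the exception: 381 and 409 against 353 and 343 CPM, without overlap and without passing the test (0.18 ± 0.08, adjusted p = 0.0933).

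In complex III, Uqcrb, a subunit at the ubiquinone-binding face, stood at 223 and 269 CPM in WT cDC1 and at 115 and 108 in WT cDC2 (1.14 ± 0.13, adjusted p = 4.53e-06). Uqcr11, the smallest subunit, stood at 122.8 and 124.7 against 68.5 and 67.2 CPM (0.87 ± 0.10, adjusted p = 4.8e-06). Uqcrh, the acidic hinge protein of the same complex, was level, at 150.2 and 157 CPM against 155 and 152 (0.00, adjusted p = 0.989), with overlapping libraries. In complex V, Atp5g3, which encodes the rotor c subunit, stood at 177 and 182 against 84.5 and 81.4 CPM (1.12 ± 0.12, adjusted p = 3.34e-06). Its paralogs make the same mature subunit. Atp5g1 stood at 117 and 127 against 65.8 and 67.3 CPM (0.88, adjusted p = 7.2e-06) and Atp5g2 at 121 and 118 against 92.3 and 84.7 (0.43, adjusted p = 0.0106), so all 3 c-subunit genes were higher in cDC1, Atp5g2 not without WT cDC1 replicate 1 or WT cDC2 replicate 2 (adjusted p up to 0.0890). Atp5a1 and Atp5b, the catalytic ring, had differences of 0.51 (adjusted p = 0.000787) and 0.81 (adjusted p = 3.36e-05).

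Complex IV holds several subunits with a second, tissue-restricted gene, and these isoforms did not all differ alike. Cox4i1, the common form of subunit 4, was the highest nuclear member, at 741 and 725 CPM in WT cDC1 and 632 and 592 in WT cDC2 (0.26 ± 0.09, adjusted p = 0.0344). This call was lost without any 1 of those 4 libraries (log2 difference 0.21 to 0.31, adjusted p up to 0.199 over 11 alternatives) and without the filter on low counts. Cox4i2, its lung form, had 44 counts over all 28 libraries and was not tested. Cox6a1 stood at 327 and 296 against 222 and 211 CPM (0.52, adjusted p = 0.0505 without WT cDC1 replicate 1), and Cox7a2 at 119 and 135 against 82.6 and 76.3 (0.67, adjusted p = 0.000307). The muscle forms Cox6a2 and Cox7a1 stayed below 1 CPM in experiment 1. Over the genotypes Cox7a1 was higher in cDC1 (1.16 ± 0.38, adjusted p = 0.0145) and Cox6a2 lower (-3.22 ± 0.66, adjusted p = 0.000579), with Cox6a2 at 0.197 and 0.0327 CPM in WT cDC1 and 0.387 and 0.461 in WT cDC2. Plasmacytoid dendritic cells are known for Cox6a2, and their other 5 markers summed to 109 and 102 CPM in WT cDC1 and 177 and 163 in WT cDC2. Whether such cells contributed was not tested.

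Cox6b2 ran against its partner. Cox6b1, the common form of subunit 6B, stood at 188 and 187 CPM in WT cDC1 and at 148 and 135 in WT cDC2 (0.41, adjusted p = 0.00763, and 0.0787 without WT cDC2 replicate 2). Cox6b2, known from testis, stood at 3.70 in both WT cDC1 libraries and at 7.19 and 6.48 in WT cDC2 (-0.88 ± 0.20, adjusted p = 0.00191). It was the nuclear member that fell, and its cDC1 libraries lay below its cDC2 libraries. Cox7a2l, which helps to join complexes III and IV, stood at 384 and 357 against 345 and 311 CPM (0.18, adjusted p = 0.137). Cox7b2, Cox8b, Cox8c and Ndufa4l2 had 0 to 12 counts over all libraries, and a second gene ID named Atp5o had 0.

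**Figure D2:**
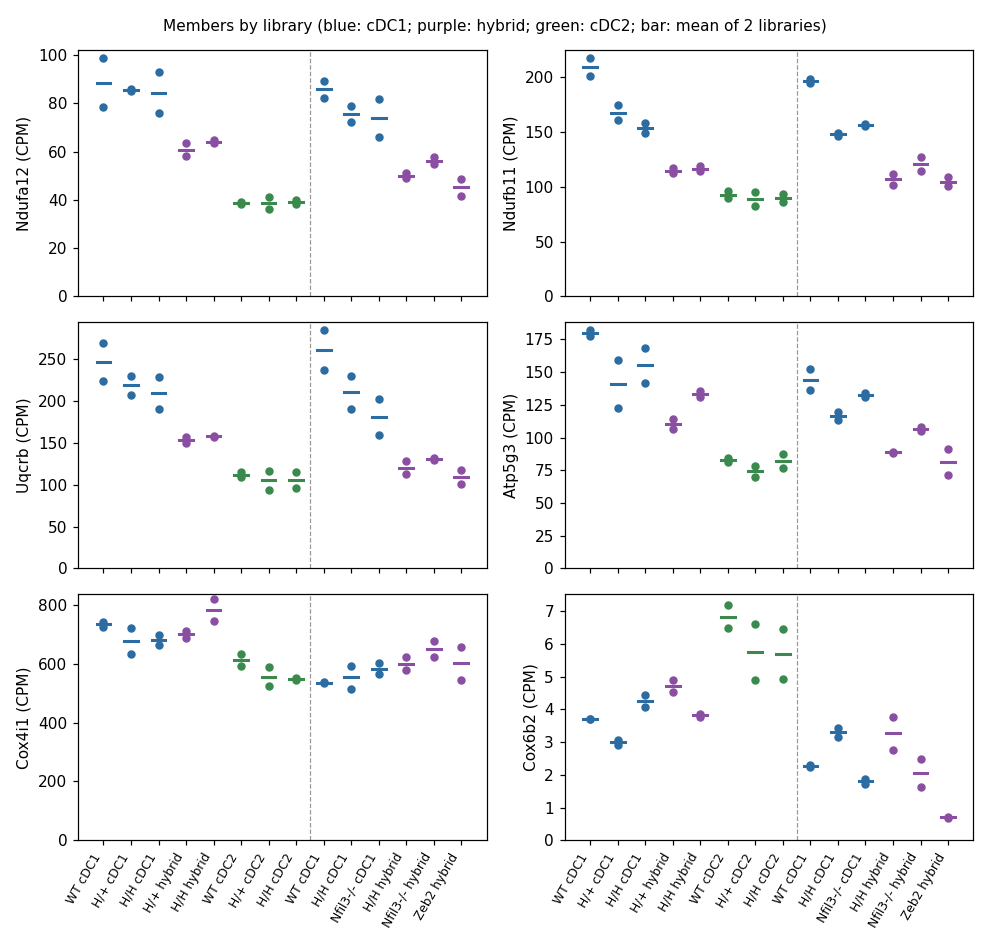
CPM of Ndufa12, Ndufb11, Uqcrb, Atp5g3, Cox4i1 and Cox6b2 in each library by group, with bars at the mean of 2 libraries and experiment 2 right of the dashed line (Nfil3-/- and Zeb2 groups carry H/H as well). The first 4 genes step down from cDC1 through hybrid cells to cDC2, Cox4i1 does not, and Cox6b2 falls to 0.690 and 0.726 CPM in H/H Zeb2 -165D123 hybrid cells.

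The mt- genes differed less between the lineages, and not all in 1 direction. mt-Nd1, of complex I, stood at 913 and 992 CPM in WT cDC1 and at 747 and 640 in WT cDC2 (0.46 ± 0.15, adjusted p = 0.0251). mt-Atp8, of complex V, stood at 314 and 346 against 268 and 209 CPM (0.47 ± 0.18, adjusted p = 0.0452). Neither overlapped. Both calls were lost without WT cDC1 replicate 1, WT cDC1 replicate 2 or WT cDC2 replicate 2 (adjusted p up to 0.180 for mt-Nd1 and 0.302 for mt-Atp8 over 11 alternatives), and that of mt-Atp8 also with a term for libraries with Xist. Other complex I genes did not pass: mt-Nd2 stood at 175 and 194 against 218 and 187 CPM (-0.13), with log2 differences of -0.04 for mt-Nd4, -0.05 for mt-Nd6 and 0.09 for mt-Nd5. The 7 mt- genes of complex I had a median log2 difference of 0.09.

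Over the 3 genotypes 6 of 13 mt- genes were higher in cDC1 and none lower. All 3 complex IV genes were among them: mt-Co1 (0.35, adjusted p = 0.00911), mt-Co2 (0.30, adjusted p = 0.0161) and mt-Co3 (0.35, adjusted p = 0.0283). The others were mt-Nd1 (0.37, adjusted p = 0.00195), mt-Atp8 (0.41, adjusted p = 0.00343) and mt-Cytb, the core of complex III (0.22, adjusted p = 0.0362). mt-Nd1, mt-Atp8 and mt-Co1 passed in all 19 alternatives. mt-Co2 did not without H/H cDC2 replicate 1 (adjusted p = 0.0511). mt-Co3 and mt-Cytb were each lost without WT cDC2, H/+ cDC1, H/+ cDC2 or H/H cDC1 replicate 2 or H/H cDC2 replicate 1, mt-Co3 also without WT cDC1 replicate 1 and mt-Cytb also without WT cDC1 replicate 2 (adjusted p up to 0.0832 and 0.128). mt-Co3 was lost without the filter on low counts too (adjusted p = 0.161). Before scaling, mt- genes made up a mean of 1.53%, 1.32% and 1.44% of counts in WT, H/+ and H/H cDC1. In cDC2 the means were 1.44%, 1.28% and 1.35%. Scaling factors were 0.914 to 0.975 in cDC1 and 1.060 to 1.113 in cDC2, so the mt- differences rest in part on the scaling. mt-Nd2 (-0.14, adjusted p = 0.301), mt-Nd4 (-0.01), mt-Nd5 (0.02) and mt-Nd6 (-0.08) did not pass. mt-Nd6 lies on the other strand where its end overlaps mt-Nd5 (M:13552 to 14070 against 11742 to 13565), and the kit does not keep strand.

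Set against each other, the genomes shifted in unequal measure. The log2 ratio of mt- to nuclear counts was 0.27 and 0.26 in WT cDC1 and 0.55 and 0.39 in WT cDC2, a difference of -0.21 (pooled SD 0.083, n = 2 and 2) with no overlap. It was -0.12 without WT cDC2 replicate 1 and -0.29 without WT cDC2 replicate 2. Over the 3 genotypes the difference was -0.18 with a pooled SD of 0.17, and it was -0.12 without H/+ cDC1 replicate 1. Libraries overlapped: H/+ cDC2 stood at 0.46 and 0.16, and H/+ cDC1 at -0.11 and 0.33. A ratio within a library does not depend on scaling and was given no test.

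**Figure D3:**
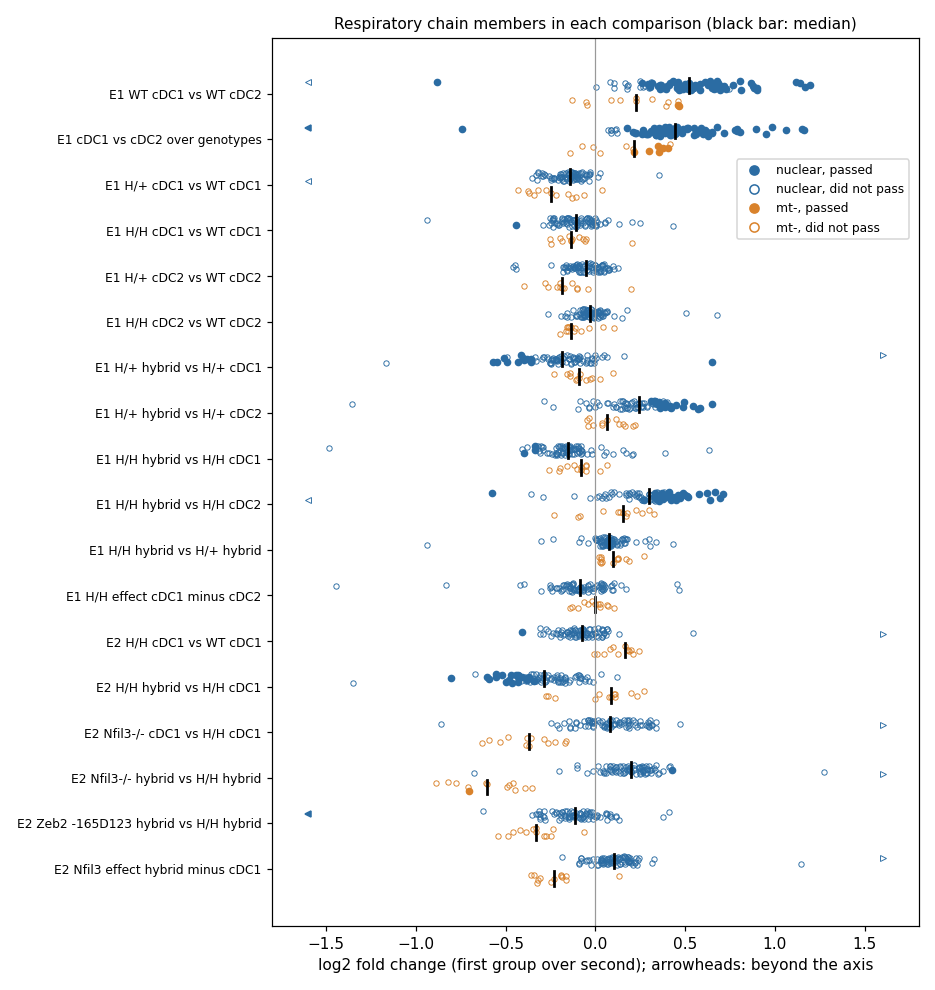
Log2 fold change of each tested member in each comparison, nuclear genes in blue and mt- genes in orange, filled where the adjusted p was below 0.05 and black bars at the median; E1 and E2 are the experiments. Nuclear genes lie right of 0 where cDC1 is set against cDC2 and left of 0 for hybrid cells against cDC1. For the Irf8 enhancer alleles few or none passed, but 79 of 82 lie left of 0 in H/+ cDC1 against WT cDC1 (median -0.14). The 13 mt- genes lie left of 0 in H/H Nfil3-/- cDC1 and in both altered hybrid groups.

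The next comparisons asked whether the altered Irf8 enhancer moved the chain within a lineage. It moved few members past the test. In H/+ cDC1 against WT cDC1 none of the 95 passed (1.47% of all genes did), and 11 nuclear and 0 mt- genes had an unadjusted p under 0.05. Medians were -0.14 for nuclear and -0.25 for mt- genes, against -0.003 for all genes, and 79 of 82 nuclear members were lower. DESeq2 called 2, as did the edgeR fit without H/+ cDC1 replicate 2. In H/H cDC1 1 nuclear member fell, while 2.71% of all genes rose and 1.47% fell. There 6 nuclear members had an unadjusted p under 0.05, and the medians were -0.11 and -0.13. In cDC2 no member passed for H/+ (0.0249% of all genes) or H/H (0.0811%), with nuclear medians of -0.05 and -0.03 and, at an unadjusted p under 0.05, 1 nuclear and 1 mt- gene for H/+ and 0 for H/H. DESeq2 also called none in either cDC2 comparison.

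Ndufb11 was the member that fell in H/H cDC1. It stood at 201 and 218 CPM in WT, 161 and 174 in H/+ and 149 and 158 in H/H cDC1 of experiment 1. The libraries of the 3 genotypes did not overlap. The log2 difference to WT was -0.32 ± 0.10 in H/+ (adjusted p = 0.115) and -0.44 ± 0.10 in H/H (adjusted p = 0.0136). In the separate libraries of experiment 2 Ndufb11 stood at 198 and 195 CPM in WT and 147 and 149 in H/H cDC1 (-0.41 ± 0.11, adjusted p = 0.0336). There it was again the single member that passed, where 4.37% of all genes rose and 1.92% fell. In cDC2 it stood at 95.8 and 90.04 CPM in WT and 86.1 and 93.9 in H/H cells (-0.05, adjusted p = 1), and the cDC1 effect of H/H minus its cDC2 effect did not pass (-0.40 ± 0.14, adjusted p = 0.23). In experiment 1 the H/H call was lost without WT cDC1 replicate 2, H/H cDC1 replicate 1 or H/H cDC1 replicate 2 (adjusted p up to 0.154). In experiment 2 it was lost without any 1 of the 4 libraries, where the difference was -0.40 to -0.44 (adjusted p up to 0.144), and also without the filter on low counts or with the compared groups fitted alone (up to 0.196).

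Of the nuclear members, 54 of 82 had a lower mean in H/H than in WT cDC1 in both experiments, and Ndufb11 alone passed in both. The share of all genes that were lower in both was not counted. mt- genes had a median of -0.13 in experiment 1 and 0.16 in experiment 2, where the log2 ratio of mt- to nuclear counts spread from -0.32 to 0.19 between the H/H cDC1 libraries and from -0.46 to -0.05 between the WT ones. Summed markers of cDC2 were higher in H/H cDC1 (75.0 and 58.2 CPM in experiment 1, 127 and 140.4 in experiment 2) than in WT cDC1. Their part in the Ndufb11 difference was not tested. For the interaction of H/H with lineage no member passed in edgeR or DESeq2, 1 nuclear member had an unadjusted p under 0.05, and 1.91% of all genes passed.

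Cox4i1 is the neighbour of Irf8 on chromosome 8 among these genes. It lies at 120668222 to 120674207 on the plus strand (GRCm38) and ends 62.2 kb before Irf8 (120736358 to 120756694, plus strand). While Irf8 went from 2580 and 1959 CPM in WT to 837 and 831 in H/H cDC1, Cox4i1 stood at 741 and 725 in WT and 664 and 697 in H/H cDC1 (-0.11, adjusted p = 0.678). No comparison of an Irf8 allele with WT passed for Cox4i1, in either lineage or experiment.

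Hybrid cells were compared with both lineages of their own genotype. For nuclear respiratory genes their mean lay between cDC1 and cDC2 for 69 of 82 members in H/+ mice (5 above both, 8 below both) and for 68 in H/H mice (9 above, 5 below). The mt- genes lay between as often, 11 of 13 in H/+ and 10 of 13 in H/H mice. The share of all genes that lay between was not counted, so it cannot be said whether this position is particular to the members. Against cDC2, 23 nuclear members were higher and none lower in H/+ hybrid cells (median 0.24, with 10.3% of all genes higher and 8.7% lower). In H/H hybrid cells 32 were higher and 1 lower (median 0.30, with 12.9% and 12.5% of all genes). Before scaling, nuclear members made up 1.109% and 1.088% of counts in H/H hybrid cells and 1.011% and 1.101% in H/H cDC2, which overlap. In H/+ mice the shares were 1.052% and 1.077% against 1.037% and 1.011%. Scaling factors in H/H mice were 0.926 and 0.954 in hybrid cells and 1.112 and 1.113 in cDC2, so these rises rest in part on the scaling. Against cDC1, 11 nuclear members were lower and 1 higher in H/+ hybrid cells (median -0.18, with 6.67% and 9.77% of all genes), and 3 were lower in H/H hybrid cells of experiment 1 (median -0.15, with 2.61% and 5.24% of all genes). In experiment 2, 19 of 82 were lower in H/H hybrid cells than in H/H cDC1 and none higher (median -0.28, with 5.25% of all genes lower and 7.24% higher). No mt- gene passed in any of these 5 comparisons, in edgeR or DESeq2, none had an unadjusted p under 0.05, and their medians ran from -0.09 to 0.15. Summed monocyte and macrophage markers were higher in hybrid cells (1435 and 1099 CPM in H/+, 1410.4 and 1078 in H/H of experiment 1, 1076 and 1132 in experiment 2) than in cDC1 of the same genotypes (299 to 526). Summed markers of natural killer cells were lower in hybrid cells (15.6 and 12.7 CPM in H/+, 10.5 and 12.5 in H/H) than in cDC2 (89.8 and 71.2 in H/+, 82.2 and 117 in H/H). The part of either was not tested.

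These counts leaned on single libraries. The 12 calls of H/+ hybrid against cDC1 came to 8 without cDC1 replicate 1, 6 without cDC1 replicate 2, 4 without hybrid replicate 1 and 2 without hybrid replicate 2. The 23 against H/+ cDC2 came to 8 and 7 without hybrid replicate 1 and 2, and to 5 without cDC2 replicate 2. The 33 of H/H hybrid against cDC2 came to 12 without hybrid replicate 1, 10 without cDC2 replicate 1 and 22 without hybrid replicate 2. Of the 3 of H/H hybrid against cDC1 none was left without cDC1 replicate 2 or either hybrid library, and the 19 of experiment 2 came to 9, 12, 5 and 2 without cDC1 replicate 1, cDC1 replicate 2, hybrid replicate 1 and hybrid replicate 2.

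Among complex I genes Ndufa12 showed the step most plainly. In H/+ mice it stood at 86.1 and 85.2 CPM in cDC1, 63.5 and 58.1 in hybrid cells and 41.2 and 36.2 in cDC2. In H/H mice it stood at 75.8 and 92.9, 64.7 and 63.6, and 38.4 and 40.2 CPM. The 3 populations overlapped in neither genotype. Against cDC2 Ndufa12 was higher in hybrid cells of H/+ (0.65 ± 0.12, adjusted p = 0.00175) and H/H mice (0.71, adjusted p = 0.000624). Against cDC1 it was lower in H/+ (-0.49, adjusted p = 0.0115) and did not pass in H/H of experiment 1 (-0.40, adjusted p = 0.0657), but did in experiment 2, at 51.2 and 48.9 against 79.0 and 72.1 CPM (-0.59 ± 0.13, adjusted p = 0.00787). The H/+ call against cDC1 was lost without cDC1 replicate 1 or hybrid replicate 2, and that of experiment 2 without cDC1 replicate 1 or hybrid replicate 2 (adjusted p up to 0.103 and 0.0915).

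Ndufb11 stood at 113 and 117 CPM in H/+ hybrid cells, against 161 and 174 in H/+ cDC1 and 95.6 and 82.4 in H/+ cDC2. It was lower than in cDC1 (-0.55, adjusted p = 0.000882), a call kept in all 11 alternatives, and higher than in cDC2 (0.37, adjusted p = 0.0148), which was lost without either hybrid library or cDC2 replicate 2 (adjusted p up to 0.151) or with the compared groups fitted alone. H/H hybrid cells had 119 and 114 CPM in experiment 1 and 112 and 102 in experiment 2, below H/H cDC1 in both (-0.40, adjusted p = 0.0175, and -0.47, adjusted p = 0.0108). The first was lost without any 1 of its 4 libraries and the second without hybrid replicate 2 (adjusted p up to 0.152 in both). Uqcrc2, a core protein of complex III, was the other gene that passed in both experiments. It stood at 189 and 215 CPM in H/H cDC1 and 156 and 164 in H/H hybrid cells of experiment 1 (-0.33 ± 0.09, adjusted p = 0.0258) and at 184 and 191 against 140 and 121 in experiment 2 (-0.52 ± 0.11, adjusted p = 0.00486). Its call was lost in experiment 1 without cDC1 replicate 2 or either hybrid library (adjusted p up to 0.277) or the filter on low counts, and in experiment 2 without hybrid replicate 2 (adjusted p = 0.117). The experiments share no library, and 72 of 82 nuclear members had a lower mean in H/H hybrid cells than in H/H cDC1 in both. Here too the share of all genes was not counted.

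Of the 19 members that fell in H/H hybrid cells against cDC1 in experiment 2, Uqcrb had the largest difference, at 229.6 and 190.2 CPM in H/H cDC1 and 128 and 112 in H/H hybrid cells (-0.80 ± 0.15, adjusted p = 0.00173), and kept its call under every alternative. Falls of complex I genes there, Ndufc1 (-0.60, adjusted p = 0.0125), Ndufb6 (-0.56, adjusted p = 0.0064) and Ndufs5 (-0.56, adjusted p = 0.0102), were lost without a single library: Ndufc1 without cDC1 replicate 1 or hybrid replicate 2, Ndufb6 without either hybrid library, and Ndufs5 without cDC1 replicate 2 or hybrid replicate 1 (adjusted p up to 0.154, 0.0647 and 0.108). Of the 19 genes, 9 belonged to complex I, 2 to complex III, 1 to complex IV and 7 to complex V. Among them was Atp5b of the catalytic ring (-0.43, adjusted p = 0.023), which was lost without cDC1 replicate 2 or either hybrid library (adjusted p up to 0.165).

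In complex IV 1 of 16 members, Cox7b, was lower than in cDC1 in H/+ hybrid cells and in H/H hybrid cells of experiment 2. That is near the shares of all genes that fell there (6.67% and 5.25%). How far these Cox7b calls rest on single libraries was not examined. Cox8a, a small membrane subunit, was higher in hybrid cells than in cDC2 (0.42, adjusted p = 0.00329 in H/+, and 0.48, adjusted p = 0.000867 in H/H) and differed from cDC1 by 0.06 and 0.17. Cox4i1 stood at 711 and 687 CPM in H/+ hybrid cells, against 588 and 524 in H/+ cDC2 (0.33, adjusted p = 0.0218). In H/H mice it stood at 820 and 746 CPM in hybrid cells, 664 and 697 in cDC1 and 552 and 545 in cDC2 (0.51, adjusted p = 0.000881 against cDC2, and 0.20, adjusted p = 0.238 against cDC1). Its hybrid libraries thus lay above both lineages in H/H mice. The H/+ call was lost without either hybrid library or cDC2 replicate 2 (adjusted p up to 0.166) or with the compared groups fitted alone, and the H/H call was kept. H/H against H/+ hybrid cells showed no member past the test (0.131% of all genes), with medians of 0.07 for nuclear and 0.10 for mt- genes, 3 members at an unadjusted p under 0.05, and 0 called by DESeq2.

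Loss of Nfil3, a basic leucine zipper repressor, was tested on the H/H background in both cell types. The medians of nuclear and mt- genes had opposite signs. Of single members 2 passed in hybrid cells, but 27 did with the compared groups fitted alone, 11 without the filter on low counts, 8 in DESeq2, 1 with an Xist term and 0 to 1 without a library. In hybrid cells all 13 mt- genes had a lower mean in H/H Nfil3-/- than in H/H libraries (median -0.61). Of these, 10 had an unadjusted p under 0.05 and 1 passed the adjusted threshold. The mt- genes are cut from shared long transcripts, so they are not 13 separate results. Of the nuclear members, 76 of 82 had a higher mean (median 0.20), and 1 passed. Of all genes 1.93% rose and 1.79% fell. In cDC1 no member passed in edgeR or DESeq2 (3.03% of all genes did in edgeR), with 12 nuclear and 1 mt- gene at an unadjusted p under 0.05. There all 13 mt- genes had a lower mean (median -0.37), and the nuclear median was 0.08.

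**Figure D4:**
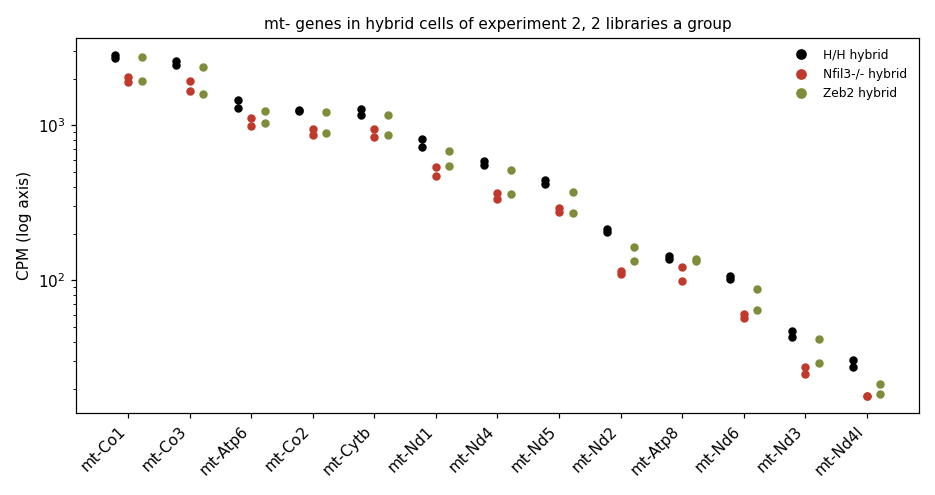
CPM (log axis) of the 13 mt- genes in the 6 hybrid cell libraries of experiment 2, by genotype (Nfil3-/- and Zeb2 groups carry H/H as well). The H/H Nfil3-/- libraries lie below the H/H libraries, in genes that are cut from shared transcripts and are not separate results. The H/H Zeb2 -165D123 libraries spread widely, with replicate 2 below both H/H Nfil3-/- libraries in mt-Co3 and mt-Nd5.

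Among mt- genes of complex I, mt-Nd4l stood at 30.8 and 27.7 CPM in H/H and 18.0 and 17.9 in H/H Nfil3-/- hybrid cells (-0.70 ± 0.17, adjusted p = 0.0294). mt-Nd2 stood at 213 and 204 against 114 and 111 CPM (-0.89, adjusted p = 0.158), and mt-Nd1 at 818 and 721 against 541 and 469 (-0.61, adjusted p = 0.125). mt-Nd5 went from 443 and 418 to 292 and 274 CPM (-0.61, adjusted p = 0.0928) and mt-Nd6 from 107 and 103 to 60.8 and 57.6 (-0.82, adjusted p = 0.274). Each of the 7 complex I genes had a larger difference than any of the other 6. mt-Cytb stood at 1279 and 1170.3 against 951 and 842 CPM (-0.45, adjusted p = 0.189), mt-Co1 at 2701 and 2850 against 2055 and 1916 (-0.48, adjusted p = 0.142), and mt-Co3 at 2463 and 2604 against 1931 and 1668 (-0.49, adjusted p = 0.107). mt-Atp8 differed least, at 145 and 138 against 122 and 99.2 CPM (-0.36, adjusted p = 0.443). The mt-Nd4l call was lost without any 1 of the 4 libraries (log2 difference -0.59 to -0.77, adjusted p up to 0.195) and with a term for libraries with Xist.

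The log2 ratio of mt- to nuclear counts stood at 0.33 and 0.34 in H/H hybrid cells and at -0.31 and -0.42 in H/H Nfil3-/- hybrid cells, a difference of -0.70 with a pooled SD of 0.053. In cDC1 the H/H libraries themselves stood at 0.19 and -0.32, and the H/H Nfil3-/- libraries at -0.48 and -0.31, which overlap (difference -0.33, pooled SD 0.27, and -0.076 without H/H replicate 1 or -0.59 without H/H replicate 2). The mitochondrial ribosomal RNAs were lower beside them in hybrid cells: their summed CPM was 4021 and 3885 in H/H and 1998 and 2035 in H/H Nfil3-/- hybrid cells, and 6175 and 2731 against 1999 and 3155 in cDC1. For the hybrid effect of Nfil3 loss minus its cDC1 effect no member passed or reached an unadjusted p under 0.05 (0.00689% of all genes passed, and DESeq2 called 0), with medians of -0.23 for mt- and 0.10 for nuclear genes. Neutrophil markers, summed, were at 38.3 and 71.4 CPM in H/H Nfil3-/- hybrid cells and 27.8 and 21.3 in H/H Nfil3-/- cDC1, against 0.223 to 5.13 in the H/H libraries of experiment 2. Their part, and that of the Xist difference, was not tested beyond the fit with an Xist term.

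Ndufb7, an accessory subunit of complex I, was the nuclear gene that rose. It stood at 88.2 and 87.0 CPM in H/H and 121 and 115 in H/H Nfil3-/- hybrid cells, without overlap (0.43 ± 0.11, adjusted p = 0.0484). The call was lost without any 1 of the 4 libraries (log2 difference 0.40 to 0.49, adjusted p up to 0.279), and with a term for libraries with Xist. The muscle isoform Cox6a2 stood out in 1 library: 7.25 CPM in H/H Nfil3-/- hybrid replicate 1 and 0.137 in replicate 2, with no call (adjusted p = 0.226). It was at 1.68 CPM in H/H Nfil3-/- cDC1 replicate 1.

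The altered Zeb2 enhancer was tested in H/H hybrid cells. The chain as a whole stayed below the test: 1 of 95 members passed (2.23% of all genes rose and 1.79% fell), with medians of -0.12 for nuclear and -0.33 for mt- genes. All 13 mt- genes had a lower mean than in H/H hybrid cells, 2 of them at an unadjusted p under 0.05. The replicates differed: mt-Co1 stood at 2771 and 1945 CPM and mt-Nd4l at 21.6 and 18.6 (-0.54, adjusted p = 0.0911), and the log2 ratio to nuclear counts was 0.24 in replicate 1 and -0.06 in replicate 2.

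Cox6b2 was the member that fell. It stood at 2.77 and 3.78 CPM in H/H hybrid cells and at 0.690 and 0.726 in H/H Zeb2 -165D123 hybrid cells (-2.20 ± 0.34, adjusted p = 0.00181), without overlap. The call was kept in all 11 alternatives (adjusted p up to 0.0222). These were the lowest Cox6b2 values of the 28 libraries. In H/H Nfil3-/- hybrid cells Cox6b2 stood at 2.47 and 1.64 CPM (-0.68, adjusted p = 0.219). In experiment 1 it was higher in H/+ hybrid cells than in H/+ cDC1 (4.90 and 4.54 against 2.92 and 3.08 CPM, 0.65, adjusted p = 0.0397) and lower in H/H hybrid cells than in H/H cDC2 (3.87 and 3.77 against 4.93 and 6.45 CPM, -0.57, adjusted p = 0.045). The first of these was lost without any 1 of its 4 libraries and the second without either hybrid library or cDC2 replicate 2 (adjusted p up to 0.175 and 0.320), and both in DESeq2, without the filter on low counts and with the compared groups fitted alone. Cox6b2 lies at 4751792 to 4753094 on the minus strand of chromosome 7. Kmt5c, which lies near it at 4740115 to 4747514 without overlap, had 44.4 and 57.7 CPM in H/H and 73.9 and 73.8 in H/H Zeb2 -165D123 hybrid cells.

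Genes around the chain were counted from lists fixed for this comparison. Mitochondrial ribosomal proteins, which translate the mt- genes, followed the nuclear members between lineages: 54 of 78 were higher in WT cDC1 and none lower (median log2 difference 0.44). Cytosolic ribosomal proteins did so too, with 45 of 85 higher and none lower (0.34). Electron carriers and quinone synthesis had 9 of 15 higher and 1 lower. Among them Cycs, cytochrome c, stood at 190 and 245 CPM in WT cDC1 and at 89.8 and 94.3 in WT cDC2 (1.24, adjusted p = 1.21e-05), while Coq8a, a kinase-like protein of quinone synthesis, was lower (-2.54). Of all genes 20.5% rose and 23.5% fell. Of assembly factors 3 of 15 for complex I rose, which is near that share, and 1 fell, and 11 of 31 for complexes II to V rose and 1 fell, with Sco2, a copper carrier of complex IV, higher (1.74) and Sdhaf1, of complex II, lower (-1.66).

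Genes that make and process mitochondrial RNA were read against the same 20.5% and 23.5% of all genes. Of 21 processing and stability genes 10 rose and 1 fell, led by Elac2, which cuts tRNAs out of the long transcripts, at 54.0 and 51.6 CPM in WT cDC1 and 10.2 and 10.9 in WT cDC2 (2.33). Of 17 genes of mitochondrial transcription and DNA copying 3 rose and 2 fell, no more than those shares, with Mterf2 higher (1.75) and Polg2, of the DNA polymerase, lower (-0.999). Of 12 nuclear regulators 1 rose and 3 fell, the latter near the share of all genes. Ppargc1a, the PGC-1 alpha coactivator, stood at 0.0786 and 0.164 CPM in WT cDC1 and 2.35 and 2.21 in WT cDC2 (-4.15, adjusted p = 6.65e-05). Its part in the difference of the nuclear subunits was not tested. Ppard (-1.34) and Gabpb1, a GABP chain (-0.82), fell and Pprc1 rose (0.41). In the TCA cycle, where counts lay near the shares of all genes, 5 of 18 rose, among them Suclg1 (0.83) and Cs (0.49), and 3 fell, led by Mdh2 (-1.49), at 624 and 606 CPM against 1695 and 1754. In glycolysis 13 of 21 rose and 6 fell (median 0.57), with Hk3 higher (4.28) and the glucose carrier Slc2a3 lower (-5.25).

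The lists were also counted in hybrid cells, and differences between lists were not tested. Against cDC2, where 10.3% (H/+) and 12.9% (H/H) of all genes were higher, cytosolic ribosomal proteins were higher in 59 of 85 (H/+, median 0.43) and 67 of 85 (H/H, 0.49), and mitochondrial ribosomal proteins in 11 and 21 of 78, the first near the share of all genes. Against cDC1, cytosolic ribosomal proteins did not pass in experiment 1 (0 of 85 in both genotypes in edgeR, 6 in each at an unadjusted p under 0.05), and 1 fell in experiment 2, while 9 and 6 of 78 mitochondrial ribosomal proteins fell in H/+ and H/H cells and 14 of 78 in experiment 2 (median -0.28), where 6.67%, 2.61% and 5.25% of all genes fell. Without Nfil3 no mitochondrial ribosomal protein passed in edgeR (medians 0.10 in cDC1 and 0.17 in hybrid cells, with 6 and 16 of 78 at an unadjusted p under 0.05). Nor did a cytosolic one (medians -0.20 and -0.13, with 16 and 5 of 85). Glycolysis had 4 of 21 higher and 1 lower in each, with Hk3 higher (1.21 in cDC1 and 1.29 in hybrid cells) and Slc2a3 lower (-1.39 and -1.03). Of all genes 3.03% passed in that cDC1 comparison, and 1.93% rose and 1.79% fell in that of hybrid cells. In H/H Zeb2 -165D123 hybrid cells 2 of the 18 listed TCA genes fell, Mdh2 (-0.56) and Idh3g (-0.49), where 2.23% of all genes rose and 1.79% fell.

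**Figure D5:**
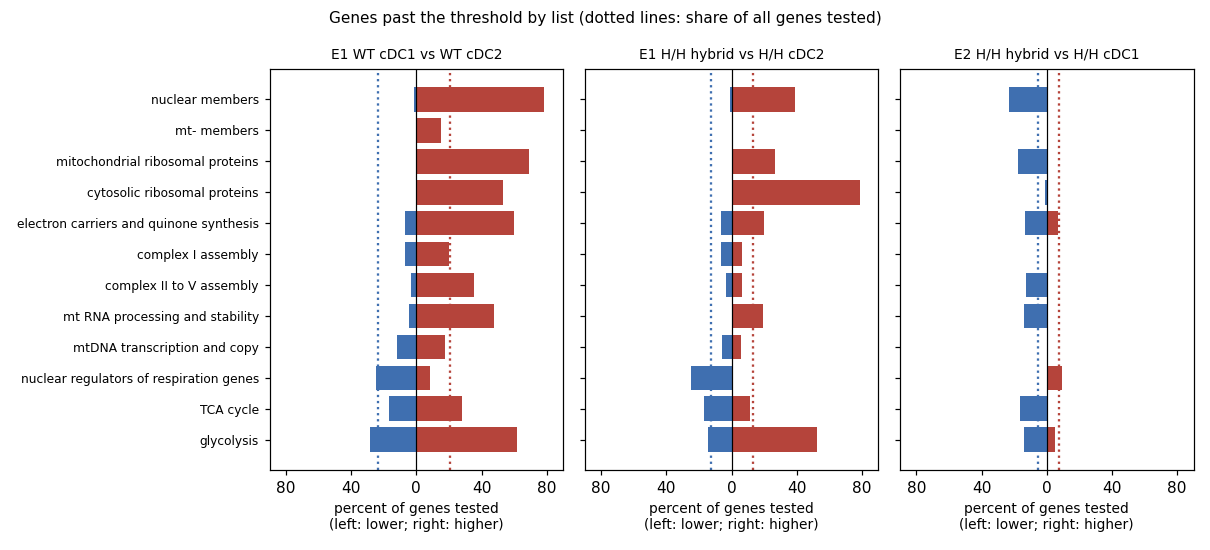
Percent of the tested genes of each list that were lower (left) or higher (right) past the threshold, in 3 comparisons, with dotted lines at the shares of all genes tested. Nuclear respiratory genes and mitochondrial ribosomal proteins reach left of the line in H/H hybrid cells against H/H cDC1, where cytosolic ribosomal proteins do not, and the last reach furthest against H/H cDC2.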

How the data were processed

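Bulk RNA-seq of 28 libraries in 14 groups was used. The authors deposited expected counts (read numbers estimated for each Ensembl gene), with a table for each experiment. Per the submitters' processing notes bcl2fastq, DRAGEN and edgeR were used, without versions, and the genome build is not given in the sources used here. Per the labels' protocols cDNA was made from 10 ng of RNA (RIN over 9.0) by a SMARTer Ultra Low kit, which does not keep strand, and amplified for 12 to 15 cycles. In the deposited expected counts 10.8% and 10.2% of values were not whole. They were rounded. Of 55774 lines in each table, repeats were dropped, and 55227 of 55487 IDs (99.5%) occur in GENCODE M21 (GRCm38), which gave coordinates and transcript lengths. CPM per kb used 1 transcript per gene, one tagged as APPRIS principal where there was one, and the longest of several. Values per kb depend on this choice, as for Cox4i1 (765 bases, against 1550 over all its exons). There were 0 other columns of per-sample values and 0 pairs of identical libraries.

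Each experiment was fitted apart with edgeR 4.0.16 in R 4.3.3 (limma 3.58.1): filterByExpr, TMM factors (0.914 to 1.113 and 0.962 to 1.032), 1 coefficient per group, robust quasi-likelihood tests on 16037 and 14504 genes with 8 and 6 residual degrees of freedom, and Benjamini-Hochberg adjustment over all genes of a comparison at 0.05. Interactions are differences of 2 such contrasts. Standard errors (SE) are the size of the log2 fold change divided by the square root of F. Biological coefficients of variation had medians of 0.150 and 0.138 over all genes, 0.095 and 0.098 for nuclear members and 0.133 and 0.139 for mt- genes. The script was tested on simulated data. The ratio of mt- to nuclear counts is a sum per library, with no test.

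The members, the lists and the alternatives were chosen with earlier results of these data known. Named were all mt- genes, second or tissue-restricted copies of subunits, and per comparison up to 6 nuclear members (4 genes of other lists) with the largest change among those past the threshold without overlap. Other subunits (of complex II, the catalytic cores, Uqcrh, Uqcr11, and those that did not pass) and the genes whose promoters are shown were chosen after their values were seen. Ndufb1-ps and Cox5b-ps are members whose reads may be shared with their parent genes. Alternatives were DESeq2 1.42.0, RLE factors, no filter, scaling without mt- rows, only the groups compared, a replicate block, an Xist term, and each library left out. Labels do not say that equal replicate numbers mark 1 animal or batch. Deviations of equally numbered libraries correlated at 0.040 to 0.341 in experiment 1 (above 0.1 in 24 of 28 pairs of groups). In experiment 2 they correlated at -0.205 to 0.231 (above 0.1 in 2 of 15). In experiment 1 all were thus positive and replicate 2 held Xist in every group, so replicate numbers may share a factor there. The main fit did not account for it, and the replicate block was an alternative. In experiment 1 the block and the Xist term are the same fit, counted as 2 alternatives.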

Additional observations from a re-analysis of the deposited data

How the results depend on the processing

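Counts are of members past the threshold, and 2 libraries a group limit all of them. None of the 76 single-gene results reversed under any alternative. They were chosen among calls that had passed, so a reversal was unlikely from the start, and many of the calls were lost with 1 library left out. RLE factors, and scaling without the mt- rows, left all 18 counts within 1.5 times.

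The replicate block moved 1 count by over 1.5 times (H/H hybrid against cDC1 in experiment 1, 3 to 5). The Xist term, the same fit in experiment 1, gave 5 there too. The block ended the calls of mt-Atp8 between WT lineages and of Ndufb7 in H/H Nfil3-/- hybrid cells. Without the filter on low counts there were 1 for H/+ cDC2, 5 for H/H hybrid against cDC1 in experiment 1, 1 for H/H against H/+ hybrid, 0 for H/H cDC1 of experiment 2, 1 for H/H Nfil3-/- cDC1, 11 for H/H Nfil3-/- hybrid and 3 for H/H Zeb2 -165D123 hybrid cells. Fits limited to the compared groups gave 4 for H/+ hybrid against cDC1, 8 against cDC2, 10 for H/H hybrid against cDC1 in experiment 1 and 12 in experiment 2, 0 for H/H cDC1 of experiment 2, 27 for H/H Nfil3-/- hybrid and 3 for H/H Zeb2 -165D123 hybrid cells. DESeq2 gave 2 for H/+ cDC1, 7 for H/H hybrid against cDC1 in experiment 1 and 8 for H/H Nfil3-/- hybrid cells. An Xist term gave 1 for H/H Nfil3-/- cDC1 and 1 for H/H Nfil3-/- hybrid cells. The cause was not tested.

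Leaving out 1 library in turn gave 0 to 2 for H/+ cDC1, 2 to 8 and 5 to 27 for H/+ hybrid against cDC1 and cDC2, 0 to 1 for H/H cDC1, 0 to 4 and 10 to 32 for H/H hybrid against cDC1 and cDC2, 0 to 0 for H/H cDC1 and 2 to 12 for H/H hybrid against cDC1 in experiment 2, 0 to 1 for H/H Nfil3-/- cDC1 and 0 to 1 for H/H Nfil3-/- hybrid cells. A lone library was assumed to vary like the other groups.

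The ratio of mt- to nuclear counts changed sign with 1 library left out in 5 comparisons: H/+ against WT cDC1 (-0.374 to 0.061), H/+ hybrid against cDC1 (-0.116 to 0.319) and cDC2 (-0.252 to 0.049), H/H hybrid against cDC2 (-0.166 to 0.023), and H/H against WT cDC1 in experiment 2 (-0.065 to 0.446). In other settings it moved by more than the pooled SD of the replicates in 4 comparisons. H/H against WT cDC1 in experiment 1 was -0.039, against -0.024 without the highest gene of each genome and -0.015 as a mean of log2 CPM. H/H hybrid against H/H cDC2 was -0.07, and -0.22 with mt- genes of whole or mostly whole counts alone. H/H against H/+ hybrid was 0.068, against 0.018 as a mean of log2 CPM and -0.011 with whole counts alone, where it reversed. H/H Nfil3-/- hybrid was -0.70, and -0.79 as a mean of log2 CPM. The settings of whole counts alone and of nuclear copies added were chosen after seeing the data. The former kept mt-Nd1, mt-Nd5, mt-Nd6 and mt-Cytb, and also mt-Nd2 and mt-Atp8, which were whole in 21 and 25 of 28 libraries.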
